A study of Mus musculus with 8 samples.

Results

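The cytosolic ribosomal proteins were followed in mouse skin after ionising radiation. Their rows were chosen by gene name, as those starting with Rpl or Rps and a digit together with Rplp0, Rplp1, Rplp2 and Rpsa, without the Rps6k kinases and without names of pseudogenes. The rule found 88 of 22564 genes. Rps19bp1 meets it but is no ribosomal protein, and the row named Rpl24 carries the identifier that GENCODE gives to Zbtb11, so both were left out of all counts. The remaining 86 genes comprised 51 of the large subunit and 35 of the small subunit. Among these 35, Rps3a2, Rps3a3 and the row named Rps4y2 (Rps4l in GENCODE) are annotated there as pseudogenes.

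The irradiated group was skin of male C57Bl/6 mice, aged 4 weeks, from an area that had received 35 Gy of electrons 24 h before collection (4 libraries, irradiated replicates 1 to 4). The nonirradiated group was skin from areas outside the beam (4 libraries, nonirradiated replicates 1 to 4). RNA was depleted of ribosomal RNA and sequenced from stranded libraries. The labels do not say whether each library came from a separate mouse, and every p-value below rests on the spread between libraries alone, which may be technical.

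A ribosome joins a small subunit, which reads the mRNA, to a large subunit, which forms the peptide bond. The ribosomal proteins are made in step with each other, and their mRNAs share a pyrimidine-rich start that couples their translation to growth signals. Several have a further role in the p53 pathway: when ribosome assembly is disturbed, free Rpl5 and Rpl11 bind Mdm2, the ligase that marks p53 for degradation, and p53 is spared. Rps27l is itself a target gene of p53. Mutations of many of these genes cause Diamond-Blackfan anaemia in humans.

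The libraries differed in how many genes they detected. Reads recovered from the deposited counts came to 5545446 to 6626644 in the irradiated libraries, against 5036281 to 6259828 in the nonirradiated ones. Irradiated replicates 1 to 4 held 10405, 11817, 12921 and 9311 genes above 0 FPKM (fragments counted per transcript length and sequencing depth), and nonirradiated replicates 1 to 4 held 13717, 14469, 14610 and 12566. Of the genes with a read, those with under 20 reads were 3.8% to 8.69% in irradiated and 12.2% to 19.6% in nonirradiated libraries, without overlap. Irradiated replicate 4 detected the fewest genes, and the medians of gene lists and several of the named genes are also given without it. All 4 basal keratinocyte, 4 differentiated keratinocyte and 5 fibroblast markers were above 0 in every library. The differentiated keratinocyte markers summed to between 657 and 1067 FPKM in irradiated and between 327 and 590 FPKM in nonirradiated skin, and 4 cell division markers to between 42.0 and 130 FPKM in irradiated and between 165 and 238 FPKM in nonirradiated skin, both without overlap. Hair shaft and root sheath markers summed to between 410 and 878 FPKM in irradiated and between 1398 and 1998 FPKM in nonirradiated skin, and 10 skeletal muscle markers to between 3717 and 6210 FPKM in irradiated and between 1249 and 4725 FPKM in nonirradiated skin. The part of these differences in the ribosomal protein values was not tested, and in bulk skin fewer cells of a type and less RNA per cell cannot be told apart. Ccng1, a target gene of p53, was higher in irradiated skin at 208 ± 16.2 FPKM, against 62.0 ± 10.9 FPKM in nonirradiated skin (SD, n = 4 each; log2 change 1.75, limma adjusted p = 0.0087). Cdkn1a, also of the p53 pathway, had 76.4 ± 13.9 FPKM in irradiated and 36.1 ± 16.9 FPKM in nonirradiated skin (limma adjusted p = 0.157, DESeq2 0.00662). Trp53, the gene of p53, had 17.6, 0.775, 15.1 and 0 FPKM in irradiated and 11.3 to 18.6 FPKM in nonirradiated libraries (limma adjusted p = 0.425).

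No ribosomal protein gene passed the test for a difference between irradiated and nonirradiated skin. The 86 genes together summed to 11210 ± 2104 FPKM in irradiated and 11048 ± 1893 FPKM in nonirradiated libraries (SD, n = 4 each), which was 2.37% to 4.05% of all FPKM in irradiated and 2.80% to 3.44% in nonirradiated libraries. The ranges overlapped, and the means differed by less than the spread between libraries. Without irradiated replicate 4 the irradiated mean was 12045 ± 1570 FPKM (SD, n = 3). Among 82 members averaging 0.5 FPKM or more, limma called 0 higher and 0 lower at an adjusted p of 0.05, where 0.12% of all genes tested were called higher and 0.128% lower. At an unadjusted p under 0.05, limma placed 5 higher and 4 lower, beside 5.68% and 7.21% of all genes tested. Those counts moved with the scaling between libraries, to 2 higher and 6 lower with median ratio scaling and to 0 higher and 11 lower with quantile normalization. edgeR's quasi-likelihood test on recovered reads also called 0 in each direction (0.602% and 0.48% of all genes), with 1 higher and 2 lower at an unadjusted p under 0.05, beside 4.85% and 5.48% of all genes. DESeq2 on the same reads called Rpl19 higher and Rpl7 lower, and it called 2.41% of all genes higher and 2.57% lower.

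The most abundant members were Rps26 with a mean of 665 FPKM over the 8 libraries, Rpl4 with 524, Rpl19 with 514, Rps12 with 445 and Rps24 with 423, all levels per length of transcript. Rps26, at the mRNA exit of the small subunit, had 742, 490, 1070 and 124 FPKM in irradiated replicates 1 to 4, against 1037, 613, 405 and 843 FPKM in nonirradiated replicates 1 to 4. Both groups spanned a wide range, with the lowest value in irradiated replicate 4. Rpl4, a core protein of the large subunit, had 511, 466, 565 and 722 FPKM in irradiated and 459, 387, 436 and 645 FPKM in nonirradiated libraries, which overlapped. Rps12 varied most within the nonirradiated group, with 281, 364, 646 and 407 FPKM in irradiated and 828, 190, 275 and 566 FPKM in nonirradiated libraries.

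How many of the genes were listed at 0 differed widely between libraries. In irradiated replicates 1 to 4, 10, 6, 2 and 23 of the 86 genes were listed at 0, and in nonirradiated replicates 1 to 4, 3, 2, 2 and 5. Irradiated replicate 4 held the most and irradiated replicate 3 no more than the nonirradiated libraries, so the groups overlapped. On average the irradiated libraries had 7.25 more genes at 0, and without irradiated replicate 4 they had 3 more. The libraries with the most ribosomal protein genes at 0 were those with the fewest genes detected in the whole table, irradiated replicates 4 and 1. The genes of the mitochondrial ribosome showed the same order within the irradiated group, with 20, 10, 2 and 32 of 77 at 0 in irradiated and 4, 0, 1 and 10 in nonirradiated libraries. A listed 0 may be a failed estimate rather than an absence, and a count of 0 allows up to 3 reads, counting error only.

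**Figure D1:**
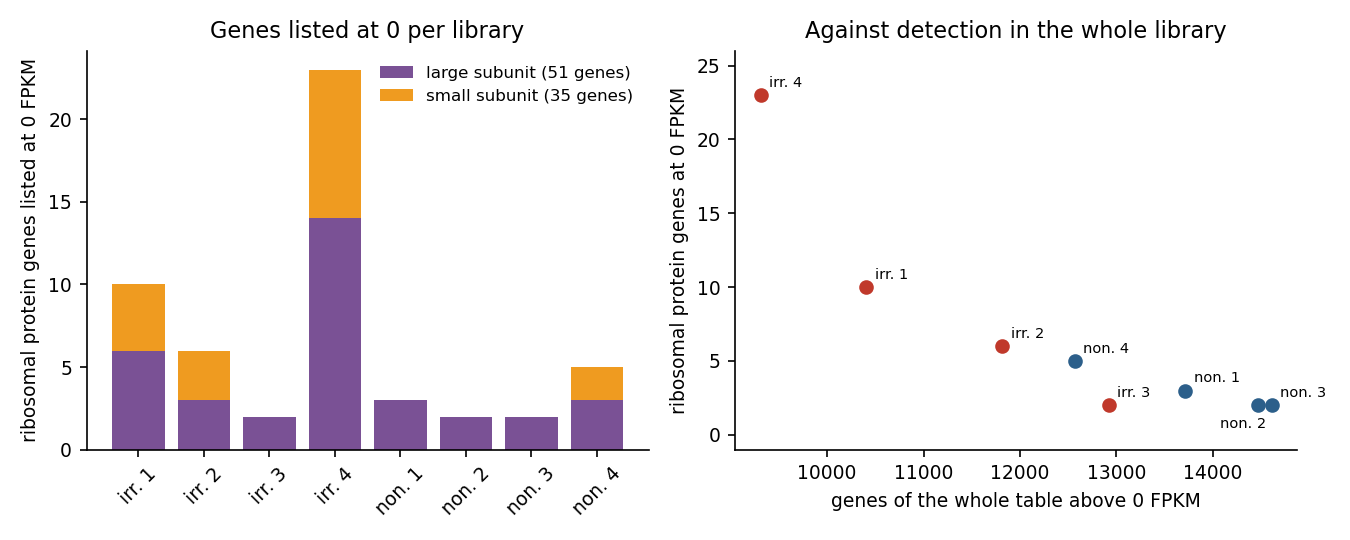
Left, number of the 86 ribosomal protein genes listed at 0 FPKM in each irradiated (irr.) and nonirradiated (non.) library, split by subunit. Right, the same number against the number of genes above 0 FPKM in the whole table, with irradiated libraries in red and nonirradiated in blue; irradiated replicate 4 has 23 genes at 0 and 9311 genes detected.

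By gene, 60 of the 86 were above 0 in every library, 20 were at 0 in irradiated libraries only, 6 in both groups and 0 in nonirradiated libraries only. Of the 20, 15 were at 0 in irradiated replicate 4 alone. The genes at 0 in at least 3 irradiated libraries were Rpl10l, Rpl29, Rpl39l, Rpl22l1 and Rps27, and all of them were at 0 in at least 1 nonirradiated library too. Rps13, Rps18, Rps27a and Rps29 were at 0 in 2 irradiated libraries. The 23 genes at 0 in irradiated replicate 4 had a median nonirradiated mean of 15.1 FPKM and a median exon length of 1434 bases, and the other 63 had a median of 126.6 FPKM and 1840 bases. These 23 were not all scarce, since Rps23 of the decoding centre averaged 80.8 FPKM in nonirradiated skin. Among the 60 genes never at 0, irradiated replicate 4 held the lowest value of 27.

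The ribosomal protein genes had a median log2 change of -0.29 between irradiated and nonirradiated skin, on the log2(FPKM + 1) scale, with 28 above 0 and 54 below. The median over all genes tested was -0.11. With quantile normalization the family's median was -0.54 beside -0.01 over all genes, and with median ratio scaling -0.40 beside -0.21. On recovered reads it was -0.15 beside -0.12 with edgeR and -0.13 beside -0.17 with DESeq2, so that with DESeq2 the family lay no lower than all genes. The sign of the family's median depended on irradiated replicate 4: without it the median was 0.07, and with irradiated replicates 1 and 4 both left out it was 0.19. Set against the nonirradiated mean, the median gene lay at -0.04, 0.10, 0.29 and -0.99 in irradiated replicates 1 to 4, and at 0.42, -0.07, 0.02 and -0.31 in nonirradiated replicates 1 to 4. Irradiated replicate 4 was the lowest of the 8 and nonirradiated replicate 1 the highest. Split at the median level of 84.9 FPKM, the 43 more abundant genes had a median log2 change of 0.07 with 24 above 0, and of the other 43, 39 were tested, with a median of -0.73 and 4 above 0. Without irradiated replicate 4 these medians were 0.18 for the more abundant and -0.06 for the less abundant genes. None of the more abundant genes was at 0 in any library. The median SD of a gene's log2 values was 0.77 within the irradiated and 0.48 within the nonirradiated group, beside 0.87 and 0.48 over all genes.

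**Figure D2:**
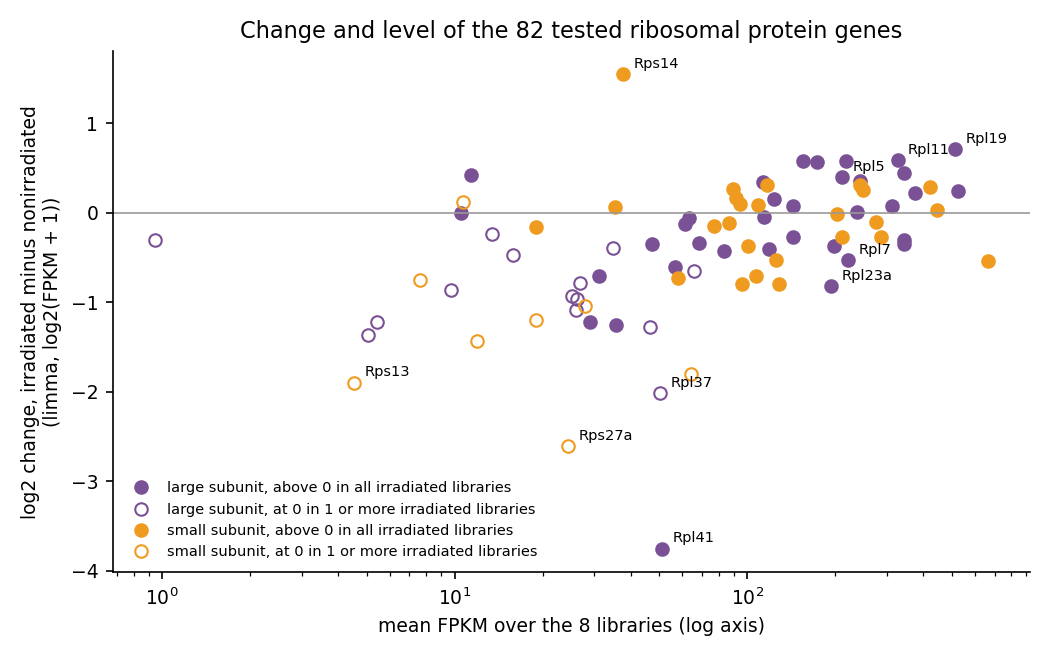
Log2 change of each of the 82 tested ribosomal protein genes, irradiated minus nonirradiated on the log2(FPKM + 1) scale, against its mean FPKM over the 8 libraries on a log axis; colour gives the subunit and open points mark genes listed at 0 in at least 1 irradiated library. The more abundant genes scatter around 0 with a median of 0.07, and the less abundant lie mostly below it with a median of -0.73, which was -0.06 without irradiated replicate 4.

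The subunits were set side by side, with no test of the difference between them. The 49 tested large subunit genes had a median log2 change of -0.34 with 16 above 0, and the 33 small subunit genes a median of -0.16 with 12 above 0. With edgeR the order of the medians turned, to -0.15 for the large and -0.23 for the small subunit. Without irradiated replicate 4 both medians were above 0, at 0.12 for the large and 0.03 for the small subunit. In that library the medians of both subunits, set against the nonirradiated mean, were -0.99 and -0.98. The large subunit's share of genes at 0 was 11.8%, 5.88%, 3.92% and 27.5% in irradiated replicates 1 to 4, against 5.88%, 3.92%, 3.92% and 5.88% in nonirradiated replicates 1 to 4. The small subunit's share was 11.4%, 8.57%, 0% and 25.7% in irradiated and 0%, 0%, 0% and 5.71% in nonirradiated libraries. Summed FPKM of the large over the small subunit was 1.64, 1.43, 1.34 and 1.86 in irradiated and 1.22, 1.48, 1.44 and 1.45 in nonirradiated libraries, which overlapped.

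**Figure D3:**
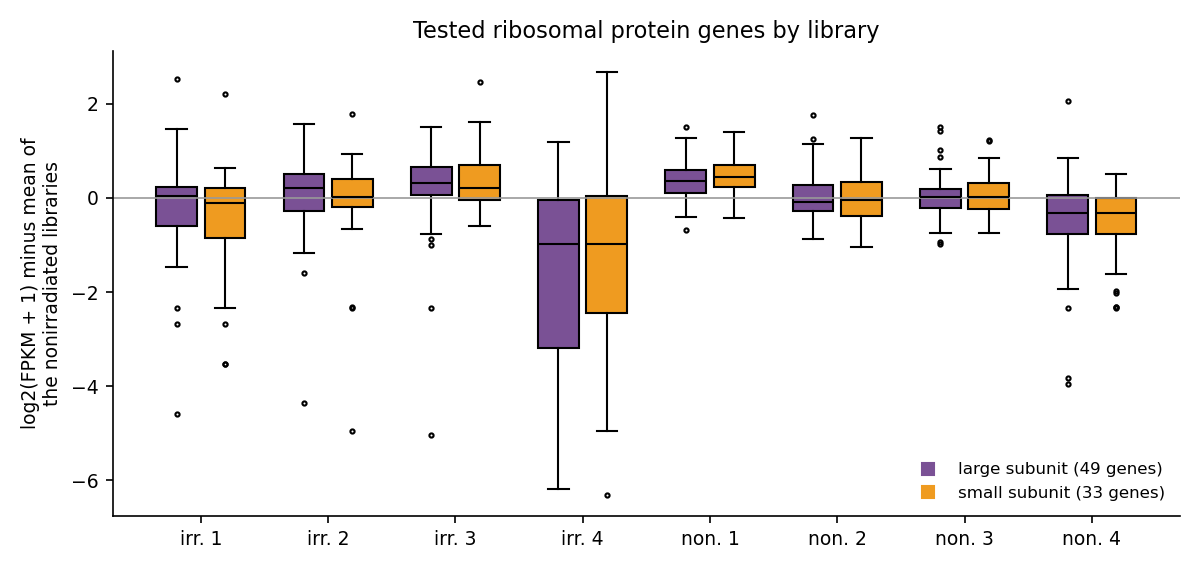
Distribution over the tested large subunit (49) and small subunit (33) genes of log2(FPKM + 1) in each library minus the mean of the nonirradiated libraries; boxes span the quartiles with the median as a line, whiskers reach 1.5 times the box and points lie beyond. Irradiated replicate 4 is low in both subunits, with medians of -0.99 and -0.98.

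The members tied to p53 were described next, in order of their place in the ribosome. Rpl5, which joins the ribosome together with Rpl11 and binds Mdm2, had 208, 224, 260 and 273 FPKM in irradiated replicates 1 to 4, against 187, 172, 179 and 189 FPKM in nonirradiated replicates 1 to 4. Every irradiated value lay above every nonirradiated value, a pattern shown by 3.99% of all genes tested, and Rpl5 was the only tested ribosomal protein gene to show it in this direction. The log2 change of 0.40 (SE 0.18) did not pass, with a limma adjusted p of 0.394, and was -0.02 after quantile normalization. Fam69a lies across Rpl5 on the opposite strand, and the use of strand in counting is not given in the sources used here.

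Rpl11, the partner of Rpl5 in binding Mdm2, had 295, 336, 515 and 425 FPKM in irradiated libraries, against 286, 176, 258 and 322 FPKM in nonirradiated libraries. The groups overlapped through nonirradiated replicate 4, and the log2 change was 0.59 (SE 0.25, limma adjusted p = 0.362). Rpl23, another Mdm2 binder, had 277, 205, 279 and 193 FPKM in irradiated and 183, 250, 255 and 259 FPKM in nonirradiated libraries, with full overlap. Rpl26, which binds the p53 mRNA, was listed at 0 in irradiated replicate 1, with 29.0, 59.3 and 13.6 FPKM in irradiated replicates 2 to 4 and 20.3, 26.6, 13.5 and 39.5 FPKM in nonirradiated libraries.

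Rpl37 was the only tested member whose irradiated values all lay below the nonirradiated ones, a pattern shown by 4.48% of all genes tested. It had 32.6, 42.1, 56.0 and 0 FPKM in irradiated replicates 1 to 4, against 68.5, 64.2, 58.3 and 80.7 FPKM in nonirradiated replicates 1 to 4. In recovered reads this was 213, 251, 382 and 0 in irradiated and 379, 370, 412 and 486 in nonirradiated libraries. The log2 change of -2.01 (SE 1.06) did not pass (limma adjusted p = 0.459), and without irradiated replicate 4 it was -0.65 (adjusted p = 0.310); edgeR gave -1.15 with all libraries.

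Of the small subunit, Rps14 of the platform had 80.8, 33.1, 53.4 and 47.4 FPKM in irradiated libraries, against 23.1, 36.5, 23.8 and 3.50 FPKM in nonirradiated libraries. The groups overlapped through irradiated replicate 2, and the log2 change of 1.55 (SE 0.59, limma adjusted p = 0.304) lay above that of any other tested member; without nonirradiated replicate 4 it was 0.88. Ndst1 lies across Rps14 on the opposite strand. Rps27a, made as a fusion with ubiquitin, had 23.3, 0, 25.7 and 0 FPKM in irradiated and 28.2, 54.3, 54.6 and 9.01 FPKM in nonirradiated libraries, again with overlap (log2 change -2.61, SE 1.15, limma adjusted p = 0.376, and -1.56 with edgeR). Rps27l, the p53 target, had 12.8, 88.8, 54.5 and 6.80 FPKM in irradiated and 23.5, 25.9, 60.1 and 10.3 FPKM in nonirradiated libraries, so the irradiated libraries held both the highest and the lowest value.

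Rps7, an Mdm2 binder, had 19.3, 43.4, 130 and 138 FPKM in irradiated and 87.0, 59.7, 52.9 and 83.8 FPKM in nonirradiated libraries. Rps3, Rps15, Rps20 and Rps25, which have also been tied to Mdm2, overlapped between the groups as well: Rps3 had 81.3 to 108 FPKM in irradiated and 71.8 to 95.2 FPKM in nonirradiated libraries. Over the whole p53-linked list, 14 of 15 genes were tested, 0 passed in either direction, 8 were above 0 and 6 below, and the median log2 change was 0.03 beside -0.11 over all genes. Without irradiated replicate 4 it was 0.10 beside -0.03. Mdm2 itself had 108 ± 18.8 FPKM in irradiated and 52.7 ± 9.81 FPKM in nonirradiated skin (SD, n = 4 each; log2 change 1.03, limma adjusted p = 0.0978, edgeR 0.0844 and DESeq2 0.00177), and the groups did not overlap. Of all genes tested, 3.99% were higher without overlap in irradiated libraries.

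**Figure D4:**
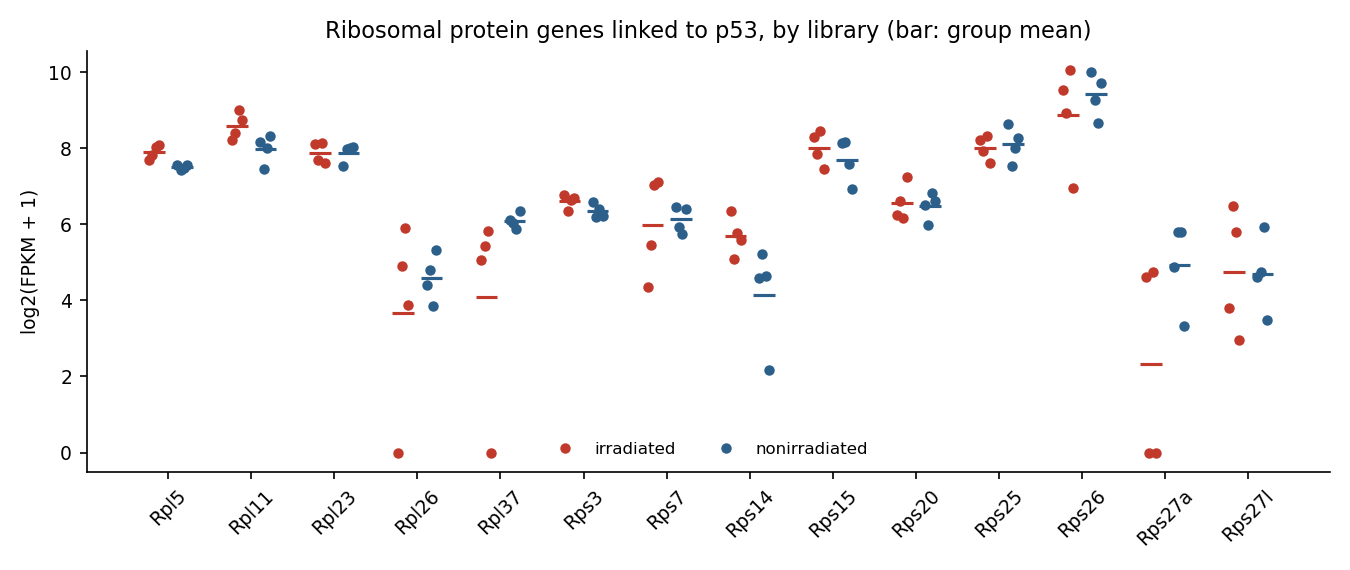
Level of the 14 tested p53-linked ribosomal protein genes as log2(FPKM + 1) in each irradiated (red) and nonirradiated (blue) library, with bars at group means. The groups separate only in Rpl5, higher in irradiated skin, and in Rpl37, where irradiated replicate 4 is at 0.

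Among the other large subunit genes, Rpl19 had the smallest p. It had 728, 609, 714 and 497 FPKM in irradiated replicates 1 to 4, against 531, 335, 357 and 342 FPKM in nonirradiated replicates 1 to 4. Irradiated replicate 4 lay below nonirradiated replicate 1, and all other irradiated values lay above all nonirradiated ones. The log2 change was 0.71 (SE 0.22), with a limma adjusted p of 0.199, and 0.67 with a DESeq2 adjusted p of 0.00308. Rpl7 had 208, 174, 140 and 198 FPKM in irradiated, against 324, 194, 267 and 263 FPKM in nonirradiated libraries, which overlapped through nonirradiated replicate 2. Its log2 change was -0.53 (SE 0.22, limma adjusted p = 0.353), and -0.57 with a DESeq2 adjusted p of 0.0430.

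Rpl27a had 216, 159, 219 and 229 FPKM in irradiated and 190, 155, 105 and 115 FPKM in nonirradiated libraries. Rpl36a had 508, 314, 417 and 355 FPKM in irradiated and 301, 234, 279 and 345 FPKM in nonirradiated libraries, and Rpl31 had 170, 262, 231 and 385 FPKM in irradiated and 213, 122, 136 and 222 FPKM in nonirradiated libraries. None of these passed, with log2 changes of 0.57, 0.45 and 0.58 and limma adjusted p of 0.362, 0.418 and 0.450. With edgeR the log2 changes were 0.34, 0.40 and 0.51. Rpl23a, near the peptide exit, had 125, 172, 183 and 74.9 FPKM in irradiated and 175, 167, 245 and 405 FPKM in nonirradiated libraries (log2 change -0.82, limma adjusted p = 0.366), and Tlcd1 overlaps it on the opposite strand. Rpl22 and Rps24, at 0.35 and 0.29 on the log2 scale, and Rpl10, Rpl13 and Rpl7a, at -0.41, -0.61 and -1.22, did not pass either. Without irradiated replicate 4 the log2 change was -0.36 for Rpl7a, -0.21 for Rpl13, 0.18 for Rpl22 and 0.38 for Rpl31, and edgeR gave -0.45 for Rpl7a.

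Rps13 and Rps16 of the small subunit also missed the threshold. Rps13 had 0, 0.277, 5.66 and 0 FPKM in irradiated and 10.6, 12.0, 7.57 and 0.277 FPKM in nonirradiated libraries (log2 change -1.90, limma adjusted p = 0.405). Rps16 had 55.8, 114, 177 and 52.8 FPKM in irradiated and 214, 148, 114 and 152 FPKM in nonirradiated libraries (log2 change -0.79, limma adjusted p = 0.428). In both genes the groups overlapped.

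The stalk of the large subunit, which recruits translation factors, is built of Rplp0, Rplp1 and Rplp2. Rplp0 had 161, 179, 192 and 198 FPKM in irradiated and 193, 104, 117 and 92.4 FPKM in nonirradiated libraries, a log2 change of 0.58 (SE 0.25, limma adjusted p = 0.371). Nonirradiated replicate 1 lay among the irradiated values. On recovered reads the log2 change of Rplp0 was 0.12 with edgeR (adjusted p = 0.985) and 0.16 with DESeq2 (adjusted p = 0.886). Rplp1 had 42.7, 39.1, 36.9 and 0 FPKM in irradiated and 47.1, 70.4, 41.3 and 0.347 FPKM in nonirradiated libraries, and Rplp2 had 133, 147, 156 and 61.0 FPKM in irradiated and 171, 194, 53.1 and 68.4 FPKM in nonirradiated libraries. The mRNAs of Rplp1 and Rplp2 were both highest in nonirradiated replicate 2 and next in nonirradiated replicate 1. That of Rplp0 was highest in irradiated replicate 4, so the stalk as a whole showed no common order of libraries. Rpsa, the laminin receptor of the small subunit, had 94.9, 108, 154 and 86.0 FPKM in irradiated and 152, 122, 89.3 and 64.8 FPKM in nonirradiated libraries, with overlap.

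Several ribosomal proteins have a paralog that can replace them in some tissues. Rpl3l, the striated muscle form of Rpl3, had 51.8, 12.1, 4.39 and 0 FPKM in irradiated and 21.2, 4.00, 7.62 and 6.40 FPKM in nonirradiated libraries, while Rpl3 had 26.9, 32.7, 47.3 and 0.730 FPKM in irradiated and 59.6, 54.3, 47.6 and 14.7 FPKM in nonirradiated libraries. The log2 change of Rpl3 was -1.26, and -0.17 without irradiated replicate 4, and neither passed. Rpl3l was highest in replicate 1 of each group, and the skeletal muscle markers also summed highest there, to 6210 FPKM in irradiated and 4725 FPKM in nonirradiated skin. In irradiated replicates 2 to 4 the markers summed to 3717, 5035 and 4460 FPKM, an order that Rpl3l did not follow. In nonirradiated replicates 2 to 4 they summed to 1249, 1489 and 1483 FPKM, in the same order as Rpl3l. The part of the markers in the Rpl3l values was not tested. Rpl22l1, the paralog of Rpl22, had 0, 14.1, 0 and 0 FPKM in irradiated and 10.1, 3.38, 12.7 and 0 FPKM in nonirradiated libraries. Rpl10l, known from the testis, was listed at 0 in all 8 libraries. Rpl39l had 1.86 FPKM in irradiated replicate 3 and 5.68 FPKM in nonirradiated replicate 4 and was at 0 elsewhere, and Rpl39 had 17.1, 43.3, 33.3 and 0 FPKM in irradiated and 25.01, 22.4, 49.4 and 17.5 FPKM in nonirradiated libraries. Rpl7l1 had 5.36 to 18.8 FPKM in irradiated and 6.33 to 12.9 FPKM in nonirradiated libraries, and Rpl36al had 46.6 to 140 FPKM in irradiated and 72.4 to 164 FPKM in nonirradiated libraries.

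Rpl41 and Rps27 each have a copy elsewhere in the genome with the same coding sequence, and the table holds a row for each. The coding sequences are shown because their letters do not separate gene from copy; how reads were assigned between the rows was not tested. The longest stretch shared by the transcripts, untranslated ends included, is 150 bases for Rpl41 and 341 bases for Rps27, and reads had 150 cycles. The coding sequences come from GENCODE M21 on GRCm38 (mm10). Rpl41 (chromosome 10, 128548114 to 128549305, minus strand) and Gm10076 (chromosome 14, 105681828 to 105682211, plus strand) share all 75 coding bases, and Rps27 (chromosome 3, 90212522 to 90213651, minus strand) and Gm9846 (chromosome 9, 114982366 to 114982739, minus strand) share all 252. Against these, the paralog Rps27l (chromosome 9, 66946086 to 66949516, plus strand) differs from Rps27 at 60 of 252 bases, an identity of 76.2%. Capitals mark the bases that differ between Rps27 and Rps27l.
Rpl41 and Gm10076: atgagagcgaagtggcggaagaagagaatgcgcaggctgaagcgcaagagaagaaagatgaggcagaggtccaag
Rps27, in the same letters as Gm9846: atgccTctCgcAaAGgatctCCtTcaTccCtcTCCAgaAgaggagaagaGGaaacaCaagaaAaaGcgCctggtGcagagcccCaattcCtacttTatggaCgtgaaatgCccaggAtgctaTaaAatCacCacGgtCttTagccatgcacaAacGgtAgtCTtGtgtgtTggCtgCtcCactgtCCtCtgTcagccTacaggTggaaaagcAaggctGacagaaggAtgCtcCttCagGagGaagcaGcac
Rps27l: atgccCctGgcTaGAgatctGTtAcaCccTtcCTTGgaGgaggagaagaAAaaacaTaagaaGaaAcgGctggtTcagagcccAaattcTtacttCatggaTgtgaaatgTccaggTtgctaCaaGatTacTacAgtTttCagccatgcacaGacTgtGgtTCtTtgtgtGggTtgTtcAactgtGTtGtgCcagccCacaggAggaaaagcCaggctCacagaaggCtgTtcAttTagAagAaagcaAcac

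Rpl41, the smallest protein of the ribosome, had 106, 2.56, 1.22 and 1.86e-05 FPKM in irradiated replicates 1 to 4, against 102, 67.8, 82.7 and 46.6 FPKM in nonirradiated replicates 1 to 4. Irradiated replicate 1 lay above all nonirradiated libraries and the other irradiated ones far below. The log2 change of -3.76 (SE 1.16) did not pass (limma adjusted p = 0.201), and without irradiated replicate 1 it was -5.19 with an adjusted p of 0.0147. In recovered reads Rpl41 had 401, 8, 4 and 0 in irradiated and 244, 163, 273 and 122 in nonirradiated libraries, the same pattern. Fits to mean reads, where limma averages logs, gave smaller log2 changes. These were -1.18 with edgeR (adjusted p = 0.956) and -1.12 with DESeq2, which gave no adjusted p. Gm10076 had 150, 94.6, 232 and 26.9 FPKM in irradiated and 151, 108, 97.3 and 140 FPKM in nonirradiated libraries. The sum of both rows was 256, 97.2, 233 and 26.9 FPKM in irradiated and 252, 176, 180 and 187 FPKM in nonirradiated libraries, so that irradiated replicate 3, near 0 in the Rpl41 row, was among the highest in the sum.

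The Rps27 row was at or near 0 in all 8 libraries, and the Gm9846 row, with the same coding sequence, was above 0 in all of them. Gm9846 had 1.70, 0.616, 8.59 and 0.642 FPKM in irradiated replicates 1 to 4, against 34.1, 45.9, 47.9 and 13.9 FPKM in nonirradiated replicates 1 to 4. All irradiated values lay below all nonirradiated values, a pattern shown by 4.48% of all genes tested. The log2 change was -3.52 (SE 0.65), with an adjusted p of 0.0587 by limma, 0.0235 by DESeq2 and 0.417 by edgeR. The row was singled out after its values were seen, and it is not one of the 86.

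As copies, 47 rows of the table were taken. A pattern in their descriptions found them as a copy, pseudogene or -like gene of a ribosomal protein gene, except Gm9846, which was added by its identifier. Descriptions worded otherwise were not counted. Of the 47, 22 were listed at 0 in all libraries and 18 averaged 0.5 FPKM or more. These 18 belong to 13 ribosomal protein genes, and 15 of them share a stretch of at least 150 bases, the number of sequencing cycles, with their parent. The sums below were formed after the values were seen and carry no test. Rpl11 with Gm10036, Gm10288 and Gm7589 gave 532, 564, 704 and 606 FPKM in irradiated and 418, 288, 364 and 492 FPKM in nonirradiated libraries, or 601 ± 74.8 and 390 ± 86.2 FPKM (SD, n = 4 each), and the groups did not overlap in the sum although they did in the Rpl11 row. The Gm10036 row had 141, 165, 125 and 123 FPKM in irradiated and 80.3, 80.1, 69.0 and 99.2 FPKM in nonirradiated libraries. Gm10288 had 15.8 to 56.3 FPKM in irradiated and 6.00 to 11.8 FPKM in nonirradiated libraries. Both of these rows separated the groups without the Rpl11 row, and Gm10036 did not pass (limma adjusted p = 0.165). Gm7589 shares at most 126 bases in a row with Rpl11, and without it the sum was 492, 517, 658 and 573 FPKM in irradiated and 376, 262, 339 and 428 FPKM in nonirradiated libraries, again without overlap. Of the 13 sums, 1 (Rpl11) was higher and 1 (Rps27) lower in all irradiated than in all nonirradiated libraries. Among all genes tested, taken singly, 3.99% were higher and 4.48% lower in this way. The Rps27 sum lies nearly wholly in Gm9846, the row added by its identifier. Rps28 with Gm10263 gave 126, 96.9, 205 and 186 FPKM in irradiated and 335, 256, 163 and 349 FPKM in nonirradiated libraries, with most of it in the Gm10263 row. Rps7 with Gm6472 gave 105, 147, 277 and 248 FPKM in irradiated and 189, 189, 160 and 174 FPKM in nonirradiated libraries. Rps18, at 0 in 2 irradiated libraries, gave 94.6, 177, 182 and 140 FPKM with Gm10260 in irradiated and 143, 127, 122 and 209 FPKM in nonirradiated libraries.

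**Figure D5:**
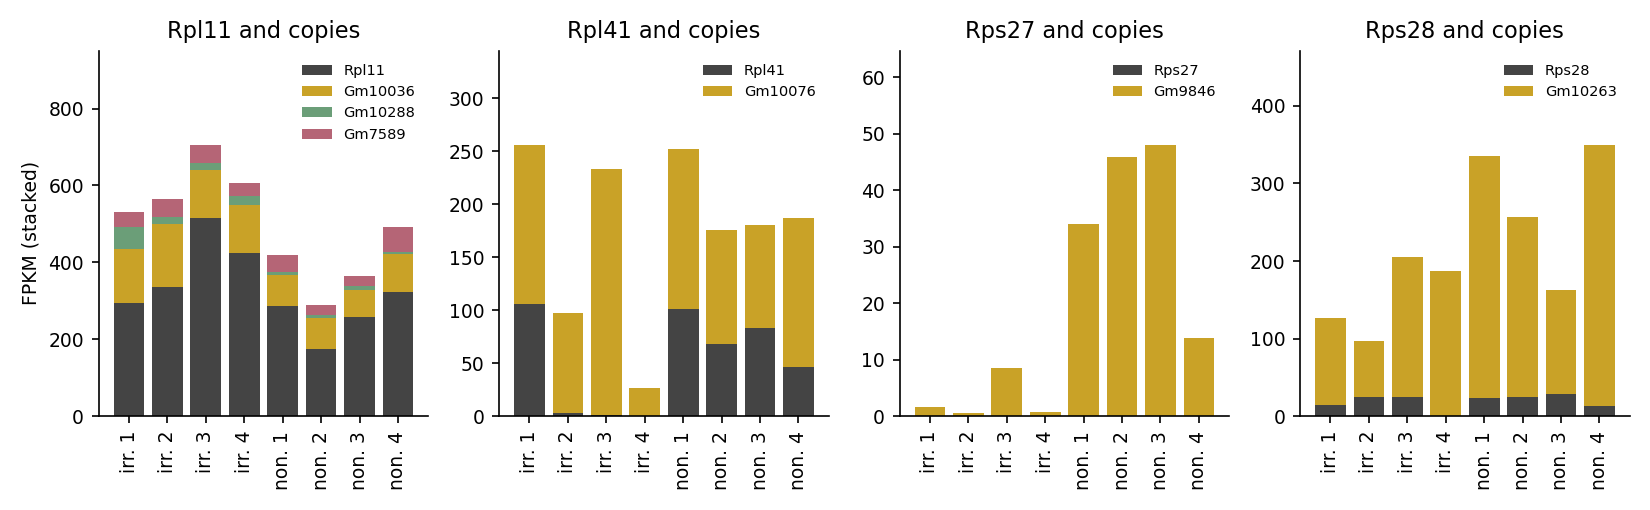
FPKM of 4 ribosomal protein genes (grey) and their copies (colours), stacked in each irradiated (irr.) and nonirradiated (non.) library; each panel has its own axis. The Rpl11 sum is higher in all irradiated than in all nonirradiated libraries, and the Rps27 sum, nearly all of it in the Gm9846 row, is lower in all irradiated libraries.

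Rpl24 appears in the table in capitals as RPL24 and so fell outside the rule. It had 82.8, 11.7, 61.6 and 154 FPKM in irradiated and 4.00, 51.5, 54.5 and 125 FPKM in nonirradiated libraries, with wide overlap. Fau makes the ribosomal protein Rps30 as a fusion and carries another name. Fau had 92.0, 74.2, 73.7 and 36.6 FPKM in irradiated and 104, 95.2, 86.0 and 42.9 FPKM in nonirradiated libraries. The groups overlapped, and irradiated replicate 4 was the lowest library.

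A subset of the family and lists of other genes of the ribosome's pathway were also counted. The Diamond-Blackfan genes listed are all members of the family, so their values are not independent of it. Of these, 20 of 21 were tested, 0 passed, 9 were above 0 and 11 below, with a median log2 change of -0.06. Translation factors whose mRNAs share the pyrimidine-rich start gave 16 tested genes, 0 called, 11 above 0 and 5 below, a median of 0.09, and none was at 0 in any library. Of 30 ribosome biogenesis genes, 0 passed in either direction by limma, 5 were lower and 0 higher at an unadjusted p under 0.05 (7.21% and 5.68% of all genes), and the median was -0.34 with 8 above 0 and 22 below. Of 76 tested mitochondrial ribosomal protein genes, 1 was called lower and 0 higher (0.128% and 0.12% of all genes), and the median was -0.31. Without irradiated replicate 4 the medians were 0.05 for the Diamond-Blackfan genes, 0.05 for the translation factors, -0.28 for the biogenesis genes and -0.03 for the mitochondrial ribosomal proteins, beside -0.03 over all genes. Differences between these lists were not tested.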

How the data were processed

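Gene levels were measured by RNA sequencing in 4 irradiated and 4 nonirradiated skin libraries. The FPKM values and the estimated counts per gene were deposited by the authors in 1 table of 22565 rows, per the file headers, of which 1 row named no gene and was left out. The submitters' processing notes name cutadapt 1.9.3, HISAT2 2.0.4, Cufflinks, Cuffdiff and mm10, without role or order. Not given in the sources used here: the annotation release, whether counting used strand, and which program wrote the table. The deposited estimated counts were mostly whole multiples of 1 step per library, between 0.871 and 1.10. Divided by it, 92.6% to 96.6% of values below 2000 steps came within 0.02 of a whole number, and these recovered reads were rounded.

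Differences were tested on the whole table with limma 3.58.1 (R 4.3.3) on the log2 of FPKM plus a pseudocount of 1, allowing for a trend of variance with level and moderating robustly, in the 13324 genes averaging 0.5 FPKM or more, and p-values were adjusted by Benjamini-Hochberg over all of them (threshold 0.05). The pseudocount shrinks fold changes of low genes, but a listed 0 can enlarge them on this scale. Rpl26, at 0 in irradiated replicate 1, had a log2 change of -0.93 by limma and -0.05 by edgeR. For Rps13, at 0 in 2 irradiated libraries, the order was the other way, at -1.90 by limma and -2.36 by edgeR. edgeR 4.0.16 (quasi-likelihood, TMM) and DESeq2 1.42.0 were run on recovered reads as alternatives, beside other pseudocounts, filters, scalings, a replicate block and libraries left out. The fits were tested on simulated data. The main fit did not treat equal replicate numbers as pairs. Deviations of libraries with equal numbers correlated between -0.01 and 0.09, and those with unequal numbers between -0.09 and 0.08. Such weak correlations cannot exclude pairing. The labels do not say whether irradiated and nonirradiated areas came from the same mice.

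The genes named were the members passing the threshold, the 5 most abundant, up to 10 in each direction by smallest limma p, the p53-linked members, the paralogs, the stalk proteins, Rpsa and the members at 0 in at least 3 irradiated libraries. The members and lists were chosen with earlier results of these data known. All 88 identifiers matched GENCODE M21. The share of genes with under 20 reads was chosen after the data were seen, in place of a planned measure of the commonest low read count.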

Additional observations from a re-analysis of the deposited data

Results flagged for a closer look

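In 10 of 88 groups of 4 libraries examined, the highest or lowest library lay apart from the rest by more than Dixon's 95% critical value. For normally spread values, chance flags about 1 in 20. A group with 1 value above 0 and the rest at 0 is always flagged, as for Rpl22l1 in irradiated and Rpl39l in both groups. The number of flags therefore cannot be set directly against that rate. In the irradiated group, Rpl41 stood at 106 FPKM in replicate 1, with the other irradiated libraries at 2.56 FPKM or less. Rps13 stood at 5.66 FPKM and Rpl39l at 1.86 FPKM in irradiated replicate 3, and Rpl22l1 at 14.1 FPKM in irradiated replicate 2, each above the other irradiated libraries. Rplp1 was listed at 0 and Rpl36al stood at 46.6 FPKM in irradiated replicate 4, each below the other irradiated libraries. In the nonirradiated group, Rpl19 stood high at 531 FPKM and Rpl23 low at 183 FPKM in replicate 1, and Rpl39l stood at 5.68 FPKM in replicate 4 with the others at 0. The summed FPKM of the large over the small subunit was 1.22 in nonirradiated replicate 1, below the other nonirradiated libraries. What sets these libraries apart was not tested.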

How the results depend on the processing

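The count of ribosomal protein genes called higher was 0 under every alternative other than DESeq2 (1), and the count called lower was 0 under every one other than DESeq2 (1), leaving out irradiated replicate 1 (1), and leaving out irradiated replicates 1 and 4 together (1; added after seeing the data); leaving out each library in turn gave 0 higher and between 0 and 1 lower. With the replicate block, 0 were higher and 0 lower. The single lower call without irradiated replicate 1 or without replicates 1 and 4 was Rpl41, at -5.19 and -4.69 on the log2 scale. Leaving out 1 library in turn, the median log2 change ranged from -0.49 to 0.07 for the family, -0.48 to 0.12 for the large subunit and -0.49 to 0.03 for the small subunit, and the excess of genes at 0 in irradiated libraries from 3 to 10. Without irradiated replicates 1 and 4 the medians were 0.19 for the family, 0.22 for the large and 0.18 for the small subunit, and the excess was 1. All genes called were 33 by limma, 133 by edgeR, 707 by DESeq2 and 16 with the replicate block, and between 4 and 76 when 1 library was left out. Median ratio scaling put 21 ribosomal protein genes above 0 and 61 below, with a median over all genes of -0.21, and quantile normalization 10 and 72, with -0.01, against 28 and 54, with -0.11, as deposited. Of 735 values of 41 named genes under up to 18 alternatives, 654 stayed on their side, 4 passed the threshold where they had not, and 77 changed sign; the cause was not tested. On the log2 scale, the changed signs gave, after quantile normalization, Rpl5 -0.019, Rpl22 -0.030, Rps24 -0.13, Rpl23 -0.43, Rps3 -0.038, Rps15 -0.10, Rps20 -0.22, Rps27l -0.069, Rplp2 -0.19, Rpsa -0.24, Rpl4 -0.31 and Rps12 -0.36. With median ratio scaling they gave Rpl23 -0.13, Rps20 -0.037, Rps27l -0.062, Rpsa -0.046 and Rps12 -0.10. With edgeR they gave Rpl23 -0.084, Rps3 -0.0067, Rps7 0.15, Rps20 -0.039, Rpl3l 0.40, Rplp2 -0.053, Rpsa -0.029 and Rps12 -0.14. With edgeR and no filter they gave Rpl23 -0.10, Rps3 -0.025, Rps7 0.13, Rps20 -0.057, Rpl3l 0.38, Rplp2 -0.071, Rpsa -0.047 and Rps12 -0.15. With DESeq2 they gave Rpl23 -0.041, Rps7 0.19, Rpl3l 0.45, Rpl36al 0.0012, Rplp2 -0.023 and Rps12 -0.10. Without irradiated replicates 1 and 4 they gave Rpl26 0.81, Rps7 0.12, Rps20 -0.090, Rps26 0.085, Rpl3 0.012, Rpl36al 0.36, Rpl39 0.51, Rpl39l 0.074 and Rplp1 0.89. Leaving out 1 library in turn, Rpl23 ranged from -0.11 to 0.10, Rpl26 from -1.67 to 0.30, Rps7 from -0.52 to 0.41, Rps20 from -0.13 to 0.23, Rps25 from -0.30 to 0.075, Rps26 from -0.94 to 0.10, Rps27l from -0.51 to 0.66, Rpl3l from -1.15 to 0.76, Rpl36al from -0.24 to 0.34, Rpl39 from -1.69 to 0.14, Rplp1 from -1.71 to 0.95, Rplp2 from -0.17 to 0.47, Rpsa from -0.13 to 0.27 and Rps12 from -0.32 to 0.38. The sign of a named member's change is thus unsettled for 22 of the 41. Of the genes with a read, 3.8% to 8.69% had under 20 reads in irradiated and 12.2% to 19.6% in nonirradiated libraries. What this means for a listed 0 was not tested.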
